A study of Mus musculus with 6 samples.

Results

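Panx1, the P2 receptors for ATP and other nucleotides, the ATP-degrading enzyme Entpd1 and the adenosine receptors were followed in RNA from mouse bone marrow neutrophils. The 10 genes, named by their role in purinergic signalling, were Panx1, P2rx1, P2rx4, P2rx7, P2ry1, P2ry2, Entpd1, Adora2a, Adora2b and Adora3. They were chosen with earlier results of these data known. All 10 were found among the 38887 genes counted, and 9 of them were abundant enough to test, as were 12259 genes in all. Adora2b was too low to test.

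Extracellular ATP is a danger and guidance signal for neutrophils. Cells release it through pannexin-1 channels, among other routes, and it acts on ligand-gated P2X channels and G-protein-coupled P2Y receptors of the same cell. Ectonucleotidases then trim ATP to ADP, AMP and finally adenosine, which acts on its own family of G-protein-coupled receptors, so that 1 released molecule feeds several receptors in turn.

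The neutrophils came from the bone marrow of C57BL/6 mice and were selected on anti-Ly6G beads. They were taken from naive control mice, which had no tumor, from mice 1 week after intravenous injection of LL2 cells (one-week LL2 mice), and from mice 3 weeks after it (three-week LL2 mice). LL2 is a mouse Lewis lung carcinoma line that seeds the lung after intravenous injection, and the cells used carried luciferase. Each group had 2 libraries of total RNA, fewer than the samples per group that the study describes, and any others were not analysed here. The study bought young adult C57BL/6 mice of both sexes, and which of them gave the sequenced cells is not given in the sources used here. The comparisons bear on a question the study put to the cells with inhibitors, namely which steps of ATP release and sensing were needed for the spontaneous migration of neutrophils early after tumor injection. In the study, inhibitors of pannexin-1, P2Y1 or P2Y2 removed the raised migration of one-week cells. Blocking P2X1 reduced it in part, and blocking the A3 receptor left it unaffected. Phosphorylated myosin light chain was higher in one-week cells than in control cells there. RNA levels do not measure released ATP, receptor protein, phosphorylation or migration.

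Libraries held 11994158 to 14127919 counts, so that 3 counts correspond to 0.2 to 0.245 CPM, that is, counts scaled to a common library total. Levels are given as CPM after edgeR's TMM scaling, and tests are edgeR's quasi-likelihood test with Benjamini-Hochberg adjustment over all 12259 genes, called at an adjusted p below 0.05. With 2 libraries per group, p-values measure the spread between these libraries, and nothing in the labels says that each came from a separate mouse. The 12 neutrophil marker genes summed to between 287700 and 351600 CPM in every library, of which S100a8 alone gave 147100 to 228500 CPM, and Ly6g had only 6 to 32 counts. Members of this list differed between groups in both directions, with 1 higher and 3 lower at 3 weeks against naive and 4 higher and 3 lower against 1 week. The granule genes Camp, Ltf and Ngp were the 3 lower ones in both, and Camp had 17010 and 19920 CPM in naive libraries and 8093 and 9926 CPM at 3 weeks. Markers of other cells were present and differed between groups. The 10 monocyte and macrophage markers summed to 370 and 348 CPM in naive libraries. At 1 week their sums were 301 and 328 CPM, and at 3 weeks 442 and 296 CPM. None was called at 1 week against naive. At 3 weeks 2 were higher and 1 lower against naive, and 1 higher and 2 lower against 1 week. Over all genes 21.4% and 22.5% were called in those comparisons. The part of such cells in the levels of the genes below was not tested. B-lineage markers summed to 46.8 to 58.3 CPM in naive and one-week libraries and to 12.4 to 14.2 CPM in three-week libraries, and all 8 of them were lower at 3 weeks in both comparisons. In such bulk RNA, fewer cells of a type and less RNA per cell cannot be told apart.

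Of the 9 tested genes, 3 receptors were higher in three-week LL2 mice, and the other 6 genes were not called in any comparison. No gene of the 10 was called in one-week LL2 mice. Of all genes tested, 7.99% were called at 1 week, 21.4% at 3 weeks against naive and 22.5% at 3 weeks against 1 week. At 3 weeks Adora3 was 9.93-fold and P2ry2 2.02-fold above naive cells, and P2ry1 was 2.43-fold above one-week cells. The channel gene Panx1 was not called in any comparison.

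**Figure D1:**
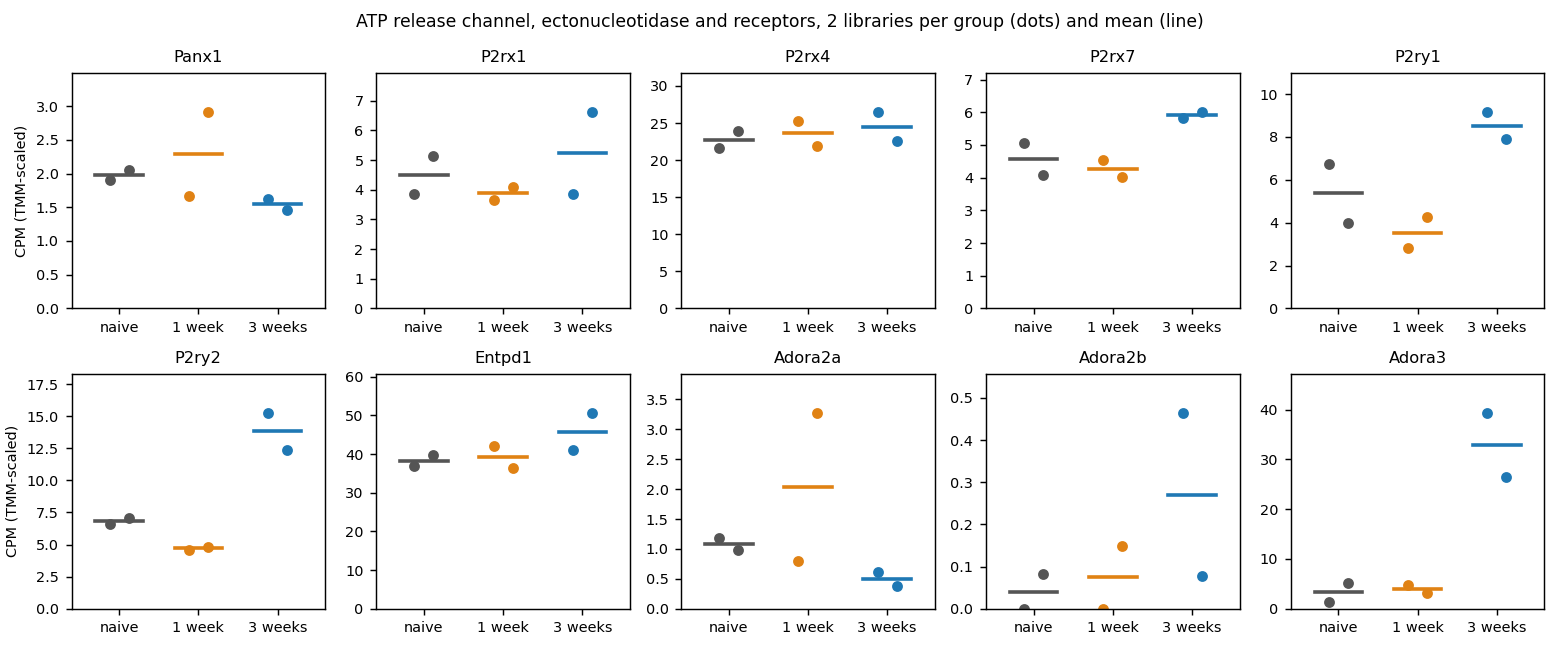
CPM (TMM-scaled, linear axes from 0) of the 10 genes in each of the 2 libraries per group (dots) with the group mean (line). Adora3, P2ry2 and P2ry1 are highest in both three-week libraries, while Panx1, P2rx1, P2rx4 and Entpd1 keep to a similar range in every group.

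Compared per kilobase of annotated exon, so that genes of different length can be set side by side, Entpd1 was the most abundant of the 10 genes in naive cells at 6.87 ± 0.379 CPM per kb (SD, n = 2). P2rx4 came next at 3.24 ± 0.231 CPM per kb. Below it P2ry2, P2rx1, P2ry1, Adora3 and P2rx7 lay between 1.74 and 0.766 CPM per kb on average, and each overlapped its neighbour in the order. Adora2a at 0.354 and Panx1 at 0.327 CPM per kb were close together near the bottom, above Adora2b at 0.0222 CPM per kb. The order in one-week cells was much the same at the top, with Entpd1 at 7.02 and P2rx4 at 3.36 CPM per kb, and Panx1 at 0.379 CPM per kb was again above only Adora2b.

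The order differed in three-week cells. Adora3 averaged 8.83 ± 2.44 CPM per kb (SD, n = 2), and its libraries overlapped those of Entpd1 at 8.22 ± 1.23 CPM per kb. P2ry2 at 3.52 CPM per kb overlapped P2rx4 at 3.49 CPM per kb. P2rx1 and P2ry1 followed at 2.00 and 1.99 CPM per kb, then P2rx7 at 0.989, Panx1 at 0.256, Adora2a at 0.164 and Adora2b at 0.147 CPM per kb. The adenosine receptor gene thus went from an average of 0.893 CPM per kb in naive cells to a level shared with the most abundant gene of the set.

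**Figure D2:**
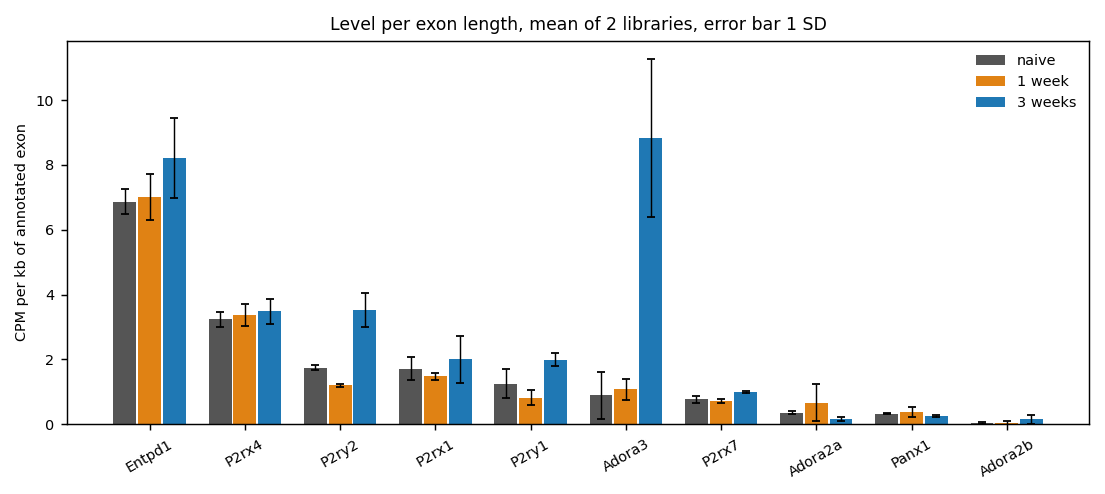
CPM per kb of annotated exon (linear axis from 0) of the 10 genes, mean of 2 libraries per group with error bars of 1 SD. Entpd1 is highest in naive and one-week cells, and in three-week cells Adora3 at 8.83 stands beside Entpd1 at 8.22.

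Panx1 (ENSMUSG00000031934, chr9:15002128-15045478, minus strand) encodes the plasma membrane channel through which ATP leaves the cell. Its counts were 24 and 25 in naive libraries, 25 and 39 in one-week libraries, and 21 and 19 in three-week libraries. Scaled, these were 1.90 and 2.05 CPM in naive cells, 1.67 and 2.91 CPM at 1 week, and 1.63 and 1.46 CPM at 3 weeks. The one-week libraries lay on both sides of the naive ones, and the three-week libraries were the lowest. The one-week level was 1.15-fold the naive level with a 95% interval from 0.62 to 2.15 (adjusted p = 0.825), and the log2 fold change was -0.35 at 3 weeks against naive (adjusted p = 0.623) and -0.56 against 1 week (adjusted p = 0.374). At these counts the interval leaves room for a doubling of Panx1 RNA at 1 week as well as for a fall.

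None of the 9 genes passed the test at 1 week against naive, where 7.99% of all genes did, 4.23% as higher and 3.76% as lower. At an unadjusted p below 0.05 there was 1 such gene, P2ry2, and DESeq2 also called 0. Their median log2 fold change was 0.03, beside 0.01 over all genes tested. At 3 weeks against naive 2 of 9 genes were called, both higher, where 21.4% of all genes were called, 12% as higher and 9.42% as lower. At 3 weeks against 1 week 3 of 9 genes were called, all higher, where 22.5% of all genes were called, 12.9% as higher and 9.57% as lower. The medians over the 9 genes were 0.26 and 0.43 on the log2 scale, and those over all genes 0.03 and -0.02. The comparisons with naive cells share the same 2 naive libraries, so they are not independent of each other, and neither are those that share the three-week or one-week libraries.

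**Figure D3:**
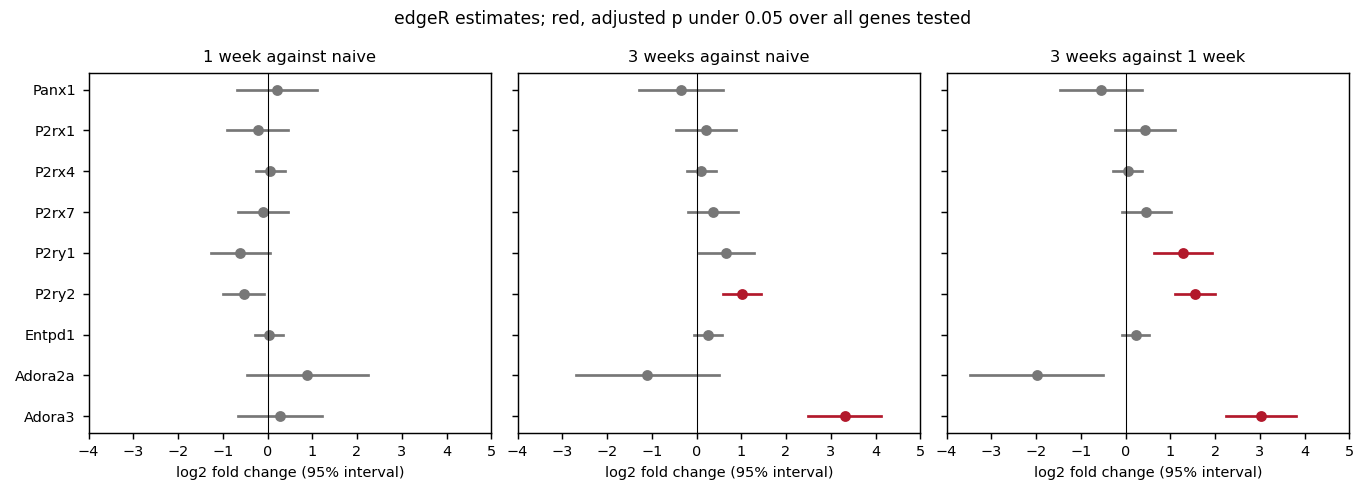
Log2 fold changes from edgeR with 95% intervals for the 9 tested genes in the 3 comparisons, red where the adjusted p over all genes was below 0.05. No interval is red at 1 week, P2ry2 and Adora3 are red at 3 weeks against naive, and P2ry1 joins them at 3 weeks against 1 week.

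The P2X genes encode channels that open on binding ATP. P2rx1 (ENSMUSG00000020787, chr11:72999103-73015200), known from platelets and from neutrophil chemotaxis, had 3.87 and 5.15 CPM in naive libraries, 3.67 and 4.10 CPM at 1 week, and 3.88 and 6.61 CPM at 3 weeks. These ranges overlapped, and the log2 fold change was -0.22 at 1 week (adjusted p = 0.739), 0.22 at 3 weeks against naive (adjusted p = 0.675) and 0.43 at 3 weeks against 1 week (adjusted p = 0.343).

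P2rx4 (ENSMUSG00000029470, chr5:122707544-122729738), a channel found on the surface and on lysosomes, was the most abundant P2X gene, with 21.6 and 23.9 CPM in naive libraries, 25.3 and 21.9 CPM at 1 week, and 26.4 and 22.6 CPM at 3 weeks. Its groups overlapped throughout. Its log2 fold changes were 0.06, 0.11 and 0.05 (adjusted p = 0.87, 0.668 and 0.841), and those at 3 weeks turned to -0.04 and -0.15 when libraries were scaled by their totals alone. P2rx7 (ENSMUSG00000029468, chr5:122643911-122691432), the channel tied to inflammasome activation at high ATP, lies 16.1 kb from P2rx4. It measured 5.06 and 4.09 CPM in naive libraries, 4.53 and 4.02 CPM at 1 week, and 5.81 and 5.99 CPM at 3 weeks. Both three-week libraries were above the other 4, but the log2 fold change of 0.37 against naive (adjusted p = 0.35) and 0.46 against 1 week (adjusted p = 0.219) did not pass the test. The microRNA gene Mir8115, which shares 119 exon bases with P2rx7, had 0 counts in every library.

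The P2Y genes encode G-protein-coupled receptors. P2ry1 (ENSMUSG00000027765, chr3:61002795-61008982) is a receptor for ADP, and P2ry2 (ENSMUSG00000032860, chr7:100996568-101012866) is a receptor for ATP and UTP that guides neutrophil migration. P2ry2 had 84 and 86 counts in naive libraries, 69 and 65 at 1 week, and 197 and 161 at 3 weeks. In CPM it was 6.64 and 7.03 in naive cells, 4.60 and 4.84 at 1 week, and 15.3 and 12.4 at 3 weeks. The 3 groups did not overlap, with one-week cells lowest and three-week cells highest.

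P2ry2 was 2.02-fold higher at 3 weeks than in naive cells (95% interval 1.50 to 2.72, log2 fold change 1.01, SE 0.199, adjusted p = 0.00279). Against one-week cells it was 2.92-fold higher (95% interval 2.15 to 3.97, log2 fold change 1.55, SE 0.204, adjusted p = 0.000151). The difference at 1 week was -0.53 on the log2 scale (95% interval -0.995 to -0.072), with an unadjusted p of 0.0267 that became 0.148 after adjustment over all genes by edgeR's procedure, so it was not called.

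P2ry1 measured 6.72 and 4.01 CPM in naive libraries, 2.80 and 4.25 CPM at 1 week, and 9.14 and 7.91 CPM at 3 weeks. Naive and one-week libraries overlapped, and the three-week libraries were above all the others. P2ry1 was 2.43-fold higher at 3 weeks than at 1 week (95% interval 1.56 to 3.78, log2 fold change 1.28, SE 0.296, adjusted p = 0.00752). Without one-week replicate 1 this log2 fold change was 0.98 and missed the threshold (adjusted p = 0.0829). The log2 fold change against naive cells was 0.67 (SE 0.287, adjusted p = 0.121), and that at 1 week against naive was -0.61 (adjusted p = 0.252). Exons of P2ry1 share 992 bases with an antisense gene on the opposite strand, Gm37035, which was not analysed here, and whether counting used the strand is not stated, so reads from the pair cannot be told apart.

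P2rx1 and P2ry1 are also platelet genes. The 10 platelet and megakaryocyte markers summed to 230 and 218 CPM in naive libraries, 179 and 201 CPM at 1 week, and 145 and 168 CPM at 3 weeks. The sum was lowest in the three-week libraries, with 4 of the 7 tested lower at 3 weeks against naive and 1 of 7 lower against 1 week. Pf4, a platelet chemokine, had 212 to 335 counts in every library, and the part of platelet RNA in the levels of P2rx1 and P2ry1 was not tested.

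Entpd1 (ENSMUSG00000048120, chr19:40612366-40741602) encodes CD39, the surface enzyme that degrades ATP and ADP to AMP. It had 466 and 487 counts in naive libraries, 630 and 488 at 1 week, and 529 and 660 at 3 weeks, or 36.8 and 39.8, 42.0 and 36.4, and 41.0 and 50.7 CPM. Both three-week libraries were above the naive ones by a small margin, and the one-week libraries overlapped both groups. No comparison was called, with log2 fold changes of 0.03, 0.26 and 0.23 (adjusted p = 0.928, 0.223 and 0.276).

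Among the adenosine receptors, Adora3 (ENSMUSG00000000562, chr3:105870858-105908926), a receptor coupled to Gi that is well known from mast cells and also present on neutrophils, differed the most. It had 18 and 64 counts in naive libraries, 73 and 42 at 1 week, and 508 and 345 at 3 weeks. In CPM these were 1.42 and 5.23, 4.87 and 3.13, and 39.4 and 26.5. Naive and one-week libraries overlapped, and the lower of the three-week libraries was above every other library.

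Adora3 was 9.93-fold higher at 3 weeks than in naive cells (95% interval 5.63 to 17.5, log2 fold change 3.31, SE 0.379, adjusted p = 5.79e-05). Against one-week cells it was 8.17-fold higher (95% interval 4.74 to 14.1, log2 fold change 3.03, SE 0.364, adjusted p = 7.47e-05). At 1 week against naive the log2 fold change was 0.28 (adjusted p = 0.759), and it turned to -0.38 without naive replicate 1, the library with 18 counts. Without naive replicate 2 the three-week difference was 4.53 and without naive replicate 1 it was 2.62, both called.

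Adora3 shares 779 exon bases on the same strand with Tmigd3, which had at most 3 counts in any library, so the split of shared reads between them rests on the authors' counting. Since the Adora3 receptor is also a gene of mast cells, the 7 mast cell and basophil markers were set beside it. They summed to 31.9 and 29.9 CPM in naive libraries, 72.1 and 74.1 CPM at 1 week, and 17.5 and 20.9 CPM at 3 weeks, with the lowest sums at 3 weeks. Against 1 week 4 of the 5 tested were lower at 3 weeks and 1 was higher, Kit, which is also a gene of blood progenitors (log2 fold change 1.02, adjusted p = 0.00972). Fcer1a and Ms4a2, which encode chains of the high-affinity IgE receptor, had at most 2 counts in any naive or three-week library. The 6 eosinophil markers summed to 65.1 and 60.4 CPM in naive libraries and to 68.0 and 48.3 CPM at 3 weeks. Of the early granule genes, 5 of 8 were higher and 2 of 8 lower at 3 weeks in both comparisons. Of 10 mature neutrophil markers, 3 were higher and 1 lower at 3 weeks against naive, and 4 higher and 0 lower against 1 week. Over all genes 12% were higher and 9.42% lower against naive, and 12.9% and 9.57% against 1 week. The part of mast cells, basophils, eosinophils, immature cells or mature neutrophils in the Adora3 level was not tested.

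Adora2a (ENSMUSG00000020178, chr10:75316877-75334784) encodes the Gs-coupled receptor that restrains neutrophil activation. It had 15 and 12 counts in naive libraries, 12 and 44 at 1 week, and 8 and 5 at 3 weeks. One-week replicate 2 stood alone at 3.28 CPM, the other 3 libraries of naive and one-week cells had 0.80 to 1.19 CPM, and the three-week libraries were lowest at 0.62 and 0.384 CPM. The log2 fold change was 0.89 at 1 week (adjusted p = 0.434) and turned to -0.44 without that replicate. At 3 weeks it was -1.10 against naive (adjusted p = 0.326) and -1.99 against 1 week (SE 0.69, adjusted p = 0.0547), and the latter was -0.69 (adjusted p = 0.666) without one-week replicate 2. The 8 T and NK cell markers summed to 28.6 CPM in the same replicate and to 11.5 to 19 CPM in the other 5 libraries. Within that list Cd3e, Cd3g and Cd8a had 11, 15 and 10 counts there against 0, 1 and 1 in the other one-week library, and Nkg7 had 91 against 40, whereas Cd3d, the T cell gene with the most counts at 1 week, had 191 in both and Cd4 had 54 and 46. Their part in the Adora2a level was not tested.

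Adora2b (ENSMUSG00000018500, chr11:62248984-62266453), the low-affinity adenosine receptor, had 0 and 1 counts in naive libraries, 0 and 2 at 1 week, and 6 and 1 at 3 weeks. Only three-week replicate 1 was above 3 counts, and no difference was detectable at this depth.

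For the 3 genes called higher at 3 weeks in at least 1 comparison (P2ry1 against 1 week only), the 250 bases before the RefSeq transcription start are shown, 5′ to 3′ on the gene's strand (GRCm38.p6), so that their proximal promoters can be compared directly. Capitals mark matches to any of 5 motifs, searched on both strands: STAT (TTCNNNGAA), C/EBP (TTGCNNAA), PU.1 (GAGGAA), HIF (ACGTG) and AP-1 (TGANTCA). The Adora3 window is chr3:105904171-105904420 (plus strand), that of P2ry1 chr3:61002535-61002784 (plus strand) and that of P2ry2 chr7:101012054-101012303 (minus strand). The windows of Adora3 and P2ry2 lie inside the gene spans given above, which start further upstream.
Adora3: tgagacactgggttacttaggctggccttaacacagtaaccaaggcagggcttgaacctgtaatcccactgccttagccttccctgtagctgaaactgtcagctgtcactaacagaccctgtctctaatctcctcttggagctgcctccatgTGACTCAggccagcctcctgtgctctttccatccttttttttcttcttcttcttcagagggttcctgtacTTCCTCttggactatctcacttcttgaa
P2ry1: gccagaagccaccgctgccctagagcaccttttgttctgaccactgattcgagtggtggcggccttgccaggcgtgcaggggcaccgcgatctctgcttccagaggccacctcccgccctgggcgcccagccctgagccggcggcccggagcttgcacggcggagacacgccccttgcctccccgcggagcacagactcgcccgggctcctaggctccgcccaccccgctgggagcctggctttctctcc
P2ry2: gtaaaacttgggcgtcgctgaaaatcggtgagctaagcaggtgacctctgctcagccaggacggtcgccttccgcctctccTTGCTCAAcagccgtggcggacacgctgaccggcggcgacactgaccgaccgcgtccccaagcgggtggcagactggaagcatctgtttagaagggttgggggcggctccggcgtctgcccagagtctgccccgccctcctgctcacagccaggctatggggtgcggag

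The Adora3 window held an AP-1 match, TGACTCA, whose first base lay 98 bases before the start, and a PU.1 match 28 bases before it on the opposite strand (TTCCTC). The P2ry2 window held a C/EBP match, TTGCTCAA, 169 bases before the start. P2ry2 has a second RefSeq start a little downstream, whose window holds the same C/EBP letters 224 bases before it and also the HIF letters, on both strands, 18 and 17 bases before it, in a stretch not shown. The P2ry1 window, with 70.8% G and C against 48.8% in Adora3 and 65.2% in P2ry2, held none of the 5 motifs. Among 32851 promoter windows of this length, 6.75% held the AP-1 letters, 23.3% PU.1, 9.56% C/EBP, 16.6% HIF and 7.02% STAT. No motif was common to the 3 windows shown. A match is a string of letters and does not show that a factor binds there. Promoter windows were found for 9 of the 10 genes, and there was none for Adora2a. The same motifs also occurred before genes that were not called in any comparison. A P2rx7 window held AP-1 letters (TGAGTCA) 249 bases before its start, and the Panx1 window held C/EBP letters (TTGCACAA) 212 bases before its start. An Entpd1 window held PU.1 letters (GAGGAA) 235 and 227 bases before its start.

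Of the other P2 and adenosine receptor genes, 3 of the 4 that could be tested were higher at 3 weeks in both comparisons, and none was called at 1 week, although P2ry13 was called lower there without a filter on low counts (log2 fold change -0.52, adjusted p = 0.0242) and without three-week replicate 2 (-0.53, adjusted p = 0.0499). Over all genes 12% were higher at 3 weeks against naive and 12.9% against 1 week. P2ry12, a receptor for ADP best known from platelets and microglia, had 1.50 and 1.88 CPM in naive libraries, 1.93 and 2.23 CPM at 1 week, and 6.74 and 5.76 CPM at 3 weeks. Its log2 fold change was 1.88 against naive (SE 0.328, adjusted p = 0.00125) and 1.58 against 1 week (SE 0.315, adjusted p = 0.00295).

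P2ry13, another ADP receptor, was the most abundant of them by CPM, at 22.5 and 29.6 CPM in naive libraries, 17.9 and 18.4 CPM at 1 week, and 59.8 and 38.0 CPM at 3 weeks. Its log2 fold change was 0.91 against naive (adjusted p = 0.00537, and 0.097 without naive replicate 1, where it was 0.69, and 0.0588 without three-week replicate 1, where it was 0.56) and 1.43 against 1 week (adjusted p = 0.000244). P2ry6, a receptor for UDP, had 1.42 and 2.13 CPM in naive libraries, 1.07 and 2.38 CPM at 1 week, and 5.50 and 6.61 CPM at 3 weeks, with log2 fold changes of 1.77 (adjusted p = 0.00661) and 1.82 (adjusted p = 0.00484). The call against naive was lost without naive replicate 1 (1.47, adjusted p = 0.0782) and that against 1 week without one-week replicate 1 (1.31, adjusted p = 0.0543), while without one-week replicate 2 the latter was 2.47. P2ry6 lies 21.9 kb from P2ry2 on the same chromosome.

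P2ry12, P2ry13 and P2ry14 all lie within the gene Med12l on the opposite strand. Med12l had 2.06 and 3.11 CPM in naive libraries, 2.80 and 2.23 CPM at 1 week, and 8.91 and 8.15 CPM at 3 weeks, a log2 fold change of 1.72 against naive (adjusted p = 0.00106). Of these receptors only P2ry12 shares exon bases with it, 9 in number, and without strand in the counting such reads cannot be told apart. P2ry14, a receptor for UDP-glucose, had 4 to 15 counts and was not called in any comparison. P2rx2 and P2rx3 had 0 counts in every library, and P2rx5, P2rx6, P2ry4 and Adora1 had at most 3, a level at which nothing could be compared.

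Over all the purinergic and migration genes examined beside the 10, 80 of 109 named could be tested, and 10 of these (12.5%) were called at 1 week, 31 (38.8%) at 3 weeks against naive and 29 (36.2%) at 3 weeks against 1 week. At 1 week 2 were higher and 8 lower, at 3 weeks 18 were higher and 13 lower against naive, and 21 were higher and 8 lower against 1 week. Their median log2 fold changes were -0.03, 0.03 and 0.00, close to those of all genes. Shares of all tested genes called in the same 3 comparisons were 7.99%, 21.4% and 22.5%.

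Among the other ATP release routes 4 of 17 could be tested, and Slc17a9 was called. It encodes the transporter that loads ATP into vesicles, and was far above Panx1 in CPM, at 56.7 and 39.7 CPM in naive libraries, 22.4 and 26.8 CPM at 1 week, and 39.8 and 42.1 CPM at 3 weeks. Both one-week libraries were below the other 4. Its log2 fold change at 1 week was -0.97 (adjusted p = 0.00483), which became -0.69 (adjusted p = 0.0784) without naive replicate 1 and -0.85 (adjusted p = 0.0581) without one-week replicate 1. At 3 weeks it was 0.74 above 1 week (adjusted p = 0.00712), or 0.58 (adjusted p = 0.0941) without one-week replicate 1. Panx2 and Panx3, the other pannexins, had at most 1 count in any library.

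Several other enzymes that break down nucleotides at the surface or within the secretory pathway were called, whereas Entpd1 was not. No other ectonucleotidase was called at 1 week, whereas 4 of 10 were called at 3 weeks against naive (3 higher, 1 lower) and 5 of 10 against 1 week (4 higher, 1 lower). The shares over all genes were 7.99% at 1 week, 21.4% at 3 weeks against naive and 22.5% against 1 week. Entpd3, a surface enzyme that degrades ATP and ADP, had 1.74 and 5.32 CPM in naive libraries, 2.33 and 2.76 CPM at 1 week, and 84.6 and 64.1 CPM at 3 weeks. It was 21.1-fold above naive (95% interval 13.3 to 33.4, adjusted p = 1.24e-06) and 29.2-fold above 1 week (95% interval 18.2 to 46.8, adjusted p = 4.85e-07). On the log2 scale the difference from naive was 4.40, or 3.77 without naive replicate 1 and 5.42 without naive replicate 2, both called.

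Nt5e, which encodes CD73, the surface enzyme that turns AMP into adenosine, went the other way. It had 12.7 and 10.4 CPM in naive libraries, 15.9 and 10.6 CPM at 1 week, and 1.55 and 2.84 CPM at 3 weeks. Its log2 fold change was -2.39 against naive (SE 0.299, adjusted p = 0.000125) and -2.59 against 1 week (SE 0.295, adjusted p = 5.1e-05). CD73 is also a lymphocyte gene, all 8 B-lineage markers were lower in the same libraries with a median log2 fold change of -2.31 against naive, and their part in the Nt5e level was not tested. Entpd7, an intracellular enzyme of the same family as Entpd1, had 11.5 and 10.6 CPM in naive libraries, 13.5 and 11.0 CPM at 1 week, and 30.6 and 22.7 CPM at 3 weeks, a log2 fold change of 1.27 (adjusted p = 0.000368).

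**Figure D4:**
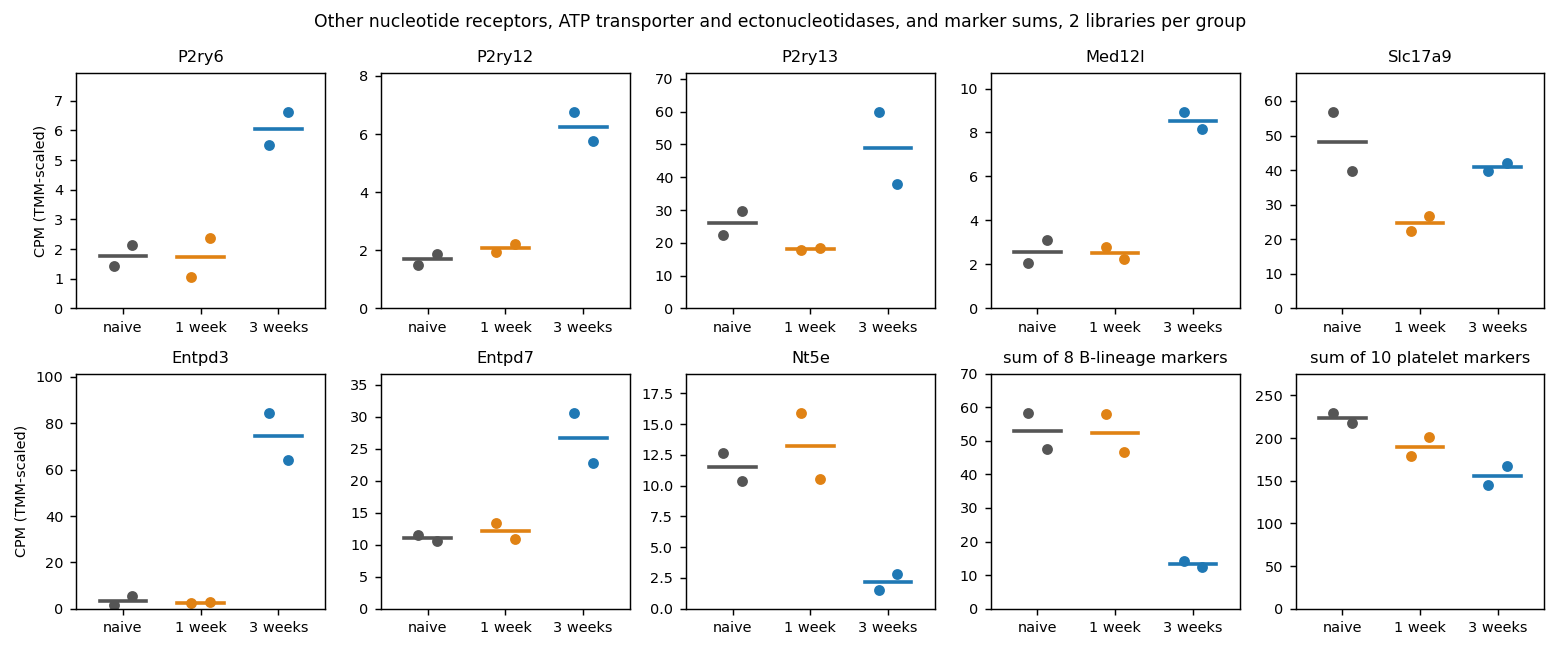
CPM (TMM-scaled, linear axes from 0) in each of the 2 libraries per group (dots) with the group mean (line) for other nucleotide receptors, Med12l, the ATP transporter Slc17a9, 3 nucleotide-degrading enzymes and the sums of the B-lineage and platelet markers. The receptors, Entpd3 and Entpd7 are highest at 3 weeks, Nt5e and the B-lineage sum are lowest there, and Slc17a9 is lowest at 1 week.

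Of 13 genes for adenosine uptake and conversion, 2 were called at 1 week (1 higher, 1 lower), 8 at 3 weeks against naive (6 higher, 2 lower) and 7 at 3 weeks against 1 week (5 higher, 2 lower). Among all genes the shares called were 7.99%, 21.4% and 22.5%. The gene higher at 1 week, named after its values were seen, was Slc28a3, a concentrative nucleoside carrier, with 10.8 and 12.6 CPM in naive libraries, 21.9 and 23.98 CPM at 1 week, and 16.4 and 17.8 CPM at 3 weeks. Both one-week libraries were above the other 4. Its log2 fold change at 1 week was 0.97 (SE 0.159, adjusted p = 0.0037), and the call was lost without naive replicate 1 (0.86, adjusted p = 0.0666). Slc28a2, a sodium-coupled nucleoside carrier, had 73.1 and 90.1 CPM in naive libraries, 76.3 and 74.4 CPM at 1 week, and 151 and 157 CPM at 3 weeks, a log2 fold change of 0.92 (SE 0.126, adjusted p = 0.00024). Nt5c3, a cytosolic nucleotidase that acts on pyrimidine monophosphates, had 122 and 129 CPM in naive libraries, 88.3 and 97.4 CPM at 1 week, and 312 and 260 CPM at 3 weeks, a log2 fold change of 1.19 against naive (adjusted p = 2.89e-05) and 1.62 against 1 week (adjusted p = 2.31e-06). It was the gene lower at 1 week (-0.44, adjusted p = 0.0484), a call lost when any naive or one-week library was left out (adjusted p = 0.133 to 0.278) and with a replicate block (adjusted p = 0.0658). Adk, the kinase that returns adenosine to AMP, was lower at 3 weeks than at 1 week by a log2 fold change of -1.03 (SE 0.206, adjusted p = 0.00301).

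Downstream of the receptors, 2 of 29 genes for G proteins and cyclic AMP signalling were called at 1 week, 9 at 3 weeks against naive (2 higher, 7 lower) and 8 against 1 week (4 higher, 4 lower). For all genes the shares called were 7.99%, 21.4% and 22.5%. Gnb2, a G protein beta subunit, had 939.7 and 814.8 CPM in naive libraries, 512 and 484 CPM at 1 week, and 1053 and 967 CPM at 3 weeks. It was lower at 1 week by -0.82 on the log2 scale (SE 0.116, adjusted p = 0.00175) and higher at 3 weeks than at 1 week by 1.02 (adjusted p = 5.15e-05). Adcy9, an adenylate cyclase that makes cyclic AMP, had 10.4 and 9.41 CPM in naive libraries and 3.72 and 4.92 CPM at 3 weeks, a log2 fold change of -1.20 (adjusted p = 0.00174). Plcb2, the phospholipase that Gi- and Gq-coupled receptors use in neutrophils, was lower at 3 weeks by -0.63 against naive (adjusted p = 0.00238). The 2 genes higher there were the G protein subunit genes Gnai3 and Gnb1. Gnai3 had 66.6 and 67.9 CPM in naive libraries and 105 and 103 CPM at 3 weeks. Gnb1 had 154 and 154 CPM, then 212 and 186 CPM. It was not called by edgeR when scaled by library totals alone (adjusted p = 0.2) or without a filter on low counts (adjusted p = 0.0612). Nor was Gnb1 called with the 2 groups compared alone, by edgeR (adjusted p = 0.078) or DESeq2 (adjusted p = 0.0789). With 1 library left out the log2 fold change against naive ran from 0.283 to 0.464 for Gnb1 and from 0.581 to 0.649 for Gnai3. Neither call held in every such fit.

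The RhoA and ROCK genes, which drive the actomyosin contraction of migrating cells, were called in 5 of 20 cases at 1 week, 0 higher and 5 lower. Over all genes 7.99% were called there, 3.76% as lower. The median log2 fold change of the 20 genes was -0.03, beside 0.01 over all genes. Rhoa had 663 and 668 CPM in naive libraries, 457 and 466 CPM at 1 week, and 719 and 655 CPM at 3 weeks, so that both one-week libraries were below the other 4. Its log2 fold change was -0.53 at 1 week (SE 0.108, adjusted p = 0.0117) and 0.57 at 3 weeks against 1 week (adjusted p = 0.00204). The one-week call was lost without naive replicate 1 (-0.54, adjusted p = 0.0747) and without one-week replicate 1 (-0.52, adjusted p = 0.101) or 2 (-0.55, adjusted p = 0.0834). Rock1 and Ppp1r12a, given next, were named after their values were seen. The other 4 were Rock1 and Rock2, kinases that act on myosin regulators, the RhoA exchange factor Arhgef2 and the myosin phosphatase subunit Ppp1r12a. Their 1-week log2 fold changes were -0.41 for Rock1, -0.61 for Rock2, -0.65 for Arhgef2 and -0.46 for Ppp1r12a (adjusted p = 0.0375, 0.0392, 0.00538 and 0.0479). None of these calls held when naive replicate 1 was left out, where the values were -0.36, -0.34, -0.65 and -0.36 (adjusted p = 0.2, 0.341, 0.0562 and 0.282). Without one-week replicate 2 they were -0.40, -0.62, -0.59 and -0.48 (adjusted p = 0.203, 0.164, 0.0688 and 0.183), and without one-week replicate 1 the calls of Rock1 (-0.42, adjusted p = 0.174), Rock2 (-0.61, adjusted p = 0.177) and Ppp1r12a (-0.45, adjusted p = 0.212) were lost. Rock1 (-0.46, adjusted p = 0.0594) and Ppp1r12a (-0.56, adjusted p = 0.0589) were also lost without naive replicate 2. With a replicate block Rock1 and Ppp1r12a missed the threshold (adjusted p = 0.0506 and 0.0614). Scaling by library totals alone lost the calls of Rock1, Rock2 and Ppp1r12a (-0.36, -0.56 and -0.41, adjusted p = 0.0796, 0.0833 and 0.101). At 3 weeks 4 of 20 were higher and 3 lower against naive, and 4 higher and 1 lower against 1 week. Over all genes 12% were higher and 9.42% lower against naive, and 12.9% and 9.57% against 1 week. Among those higher against naive was Myl12b, with 262 and 275 CPM in naive libraries and 364 and 433 CPM at 3 weeks. With 1 library left out its log2 fold change ran from 0.443 to 0.701, and the call did not hold without naive replicate 1, where it was 0.505.

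Over the 6 libraries the genes whose log2 CPM followed Adora3 most closely were 1600014C10Rik (Pearson r = 0.9962), the histamine receptor gene Hrh2 (0.9952) and Srgap1 (0.9946), and 9 genes had an r above 0.99. These values are a description over 6 libraries that share the group difference. Hrh2 had 4.27 and 6.46 CPM in naive libraries, 7.07 and 5.44 CPM at 1 week, and 13.7 and 12.7 CPM at 3 weeks.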

How the data were processed

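Total RNA of Ly6G-selected bone marrow neutrophils was sequenced single-end in 2 libraries per group. The authors deposited expected counts per Ensembl gene, made with RSEM (1.2.31 in the submitters' processing notes) on mm10, and all values in the table were whole numbers. Strandedness is not given in the sources used here. Gene symbols and GRCm38 coordinates came from GENCODE by Ensembl identifier, which matched 37570 of 38887 genes. CPM and tests came from edgeR 4.0.16 in R 4.3.3 on the deposited counts, with TMM factors of 0.913 to 1.07, edgeR's filter on low counts, 1 quasi-likelihood fit over all 6 libraries and Benjamini-Hochberg adjustment over 12259 genes. CPM per kb divides by the summed length of all annotated exons, which may differ from the transcripts used by RSEM. Promoter windows came from RefSeq.

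Deviations of same-numbered libraries correlated at 0.01 to 0.038 over the genes tested, so no pairing across all genes was seen. A pairing limited to some genes would not show in this value, and the labels do not state one. Replicates differed beyond counting noise, chi-square over its degrees of freedom being 8.34 to 11.4. Alternatives were DESeq2 1.42.0, fits of 2 groups alone, other scalings and filters, a replicate block, a fold threshold of 5 and leaving out each library. The script was tested on simulated data.

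The 10 genes and the lists beside them were chosen with earlier results of these data known. Text names all 10, all other P2 and adenosine receptors, and genes from each other list. The latter were drawn from up to 6 called genes a list by adjusted p, not all of which are given here. Slc28a3, Rock1 and Ppp1r12a were added after their values were seen. Also named were markers set beside these genes, overlapping genes, and the 3 genes nearest in pattern to the gene with the smallest adjusted p. Of 109 further symbols, 4 matched no gene in the table, and 2 of those, Fam26f and Acp3, are other names of Calhm6 and Acpp, which were matched.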

Additional observations from a re-analysis of the deposited data

Results flagged for a closer look

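Of the 9 tested genes, 3 had an effect at 3 weeks that differed from the effect at 1 week. This was the three-week against one-week comparison given above, by edgeR's quasi-likelihood test with adjustment over all genes. In it 22.5% of all genes tested were called. The log2 difference was 3.03 for Adora3 (adjusted p = 7.47e-05), 1.55 for P2ry2 (adjusted p = 0.000151) and 1.28 for P2ry1 (adjusted p = 0.00752), with both three-week libraries above both one-week libraries for each gene. For P2ry2 and P2ry1 the one-week mean was also below the naive mean, a step that was not called for either gene.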

How the results depend on the processing

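Adora3 and P2ry2 kept their direction and their calls at 3 weeks in every alternative run, except that P2ry2 is below the fold threshold of 5. Over the libraries left out in turn, the log2 fold change against naive ran from 2.62 to 4.53 for Adora3 and from 0.865 to 1.16 for P2ry2, and against 1 week from 2.73 to 3.37, from 1.40 to 1.70, and for P2ry1 from 0.978 to 1.57. Requiring a fold over 5 left 1 of the 10 genes, Adora3, in each three-week comparison, 0, 3 and 3 of the other listed genes, and 92, 208 and 196 of all genes at 1 week, at 3 weeks against naive and at 3 weeks against 1 week. No filter on low counts gave 1537 genes and 16 listed genes at 1 week, and DESeq2 on the 2 groups alone gave 1667 genes and 19 listed genes at 3 weeks against naive. Leaving out 1 library gave 147 to 1145, 1362 to 2392 and 1502 to 2725 genes called, and 1 to 13, 9 to 25 and 18 to 30 listed genes. With a replicate block, 0, 2 and 3 of the 10 genes, 7, 29 and 28 listed genes and 959, 2559 and 2709 of all genes were called.

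Scaling by library totals alone moved the median log2 fold change of all genes to -0.11 at 3 weeks against naive and -0.23 against 1 week, and the calls from 1471 higher and 1155 lower to 890 and 1675, and from 1586 and 1173 to 856 and 2136. At 1 week it moved them from 518 and 461 to 575 and 263. Calls it took away included those of Rock1, Rock2, Ppp1r12a and Nt5c3 at 1 week (Nt5c3 -0.38, adjusted p = 0.0768). Slc17a9 at 3 weeks against 1 week was also lost under this scaling (0.54, adjusted p = 0.0505). The same scaling turned P2rx4 to -0.038 and -0.152 at 3 weeks and P2ry6 to 0.005 at 1 week. It called Adora2a lower at 3 weeks than at 1 week (-2.18, adjusted p = 0.0354), as did no filter (-2.01, adjusted p = 0.0048). With one-week replicate 1 left out, the Adora2a value was -2.71. The cause was not tested.

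Leaving out 1 library turned the sign of several uncalled differences. Those at 1 week ran from -0.242 to 0.554 for Panx1, -0.057 to 0.155 for P2rx4, -0.242 to 0.064 for P2rx7, -0.08 to 0.13 for Entpd1, -0.436 to 1.58 for Adora2a, -0.381 to 1.49 for Adora3, -0.729 to 0.422 for P2ry6 and -0.626 to 0.888 for P2ry14, whereas P2ry2 kept its sign there, from -0.578 to -0.494. At 3 weeks against naive P2rx1 ran from -0.213 to 0.561 and P2ry14 from -1.34 to 0.364, and against 1 week P2rx4 ran from -0.077 to 0.171 and P2ry14 from -1.28 to 0.026. With 19 to 39 counts a library, Panx1 could be measured only to within about the interval given for it.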
